A study of Mus musculus with 2 samples.

Results

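The 8 genes described here mark the surface of cancer-associated fibroblasts or carry platelet-derived growth factor (PDGF) signals, and were followed through the cell classes of mouse pancreatic tumors: the surface markers Thy1, Lrrc15 and Fap, the receptors Pdgfra and Pdgfrb, and the ligands Pdgfa, Pdgfb and Pdgfc. They were taken by symbol, and all 8 are among the 19059 genes measured. The tumors were KPC tumors, a widely used mouse model of pancreatic cancer, grown orthotopically in the pancreas and given either DMSO, the vehicle, or EIPA at 10 mg/kg, an inhibitor of sodium-proton exchange that blocks macropinocytosis, the bulk uptake of fluid by cells. Each treatment is 1 sample made from 4 pooled, flash-frozen tumors, so differences between animals cannot be seen. Gene-specific probes were hybridized to fixed single cells, and the values are raw counts of unique molecular identifiers (UMIs).

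The 2 libraries are told apart by a number at the end of the cell barcode that matches no treatment label. Values are therefore given first for library 1 and then for library 2, ratios divide library 2 by library 1 by convention, and no treatment direction is drawn. Library 1 held 12337 cells and 203459556 UMIs, library 2 held 11945 cells and 185474400 UMIs, and 225 barcode sequences occurred in both. After filters 11115 and 10785 cells remained. With 1 library of each kind there is no replicate, cells are not replicates, and the 95% intervals below cover counting error only.

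Classes were named from marker genes that exclude the 8 genes, and the names mean fibroblast-like, pericyte-like and so on. Library 1 held 369 fibroblasts, 61 pericytes, 150 blood endothelial cells and 4579 epithelial tumor cells, and library 2 held 450, 50, 131 and 4771. All 12 fibroblast markers were at 20 CPM or more (CPM being a gene's UMIs relative to all UMIs of the class, scaled in the usual way) in the fibroblasts of both libraries, as were 11 of 11 pericyte markers in pericytes and 12 of 12 blood endothelial markers in endothelium. The pericyte cluster also held 5 of 6 smooth muscle markers at that level, and 11 of 12 fibroblast markers, which summed to 35160 and 31060 CPM there against 98040 and 104900 CPM in fibroblasts. The endothelial cluster held 6 of 6 lymphatic markers and 7 of 12 fibroblast markers, the latter at 1388 and 2753 CPM. A further 4806 and 3840 cells met no marker rule and are called unnamed. Their clusters carried Krt8 at 740 to 3698 CPM and Epcam at 19.3 to 67.6 CPM, with 1 shallow cluster and 1 led by mitochondrial genes among them. Epithelial markers in fibroblasts, pericytes and endothelium were at 24.97%, 36.0% and 23.2% of their level in tumor and unnamed cells in library 1 and at 24.4%, 31.7% and 27.2% in library 2. That share of the tumor-cell level is given below as the epithelial background of a ligand. It is a median of 12 markers, which ranged from 9.36% to 56.2% in pericytes of library 1.

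PDGFs are secreted dimers that bring receptor tyrosine kinases together. PDGF-A and PDGF-C act mainly through the receptor PDGFR-alpha, and PDGF-B through PDGFR-beta as well. In growing vessels, endothelial PDGF-B recruits pericytes that carry PDGFR-beta, while in tumors carcinoma cells secrete PDGFs that act on the stroma. Thy1 (CD90) is a lipid-anchored surface protein of fibroblasts, pericytes and mouse T cells. Lrrc15 is a leucine-rich-repeat membrane protein of myofibroblastic fibroblasts exposed to TGF-beta, and Fap is a membrane serine protease of activated fibroblasts.

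Lrrc15 and Pdgfra were the members for which fibroblasts stood furthest above the next class, so the 300 bases around their starts are shown, from 250 before to 50 after, read 5′ to 3′ on the gene's strand (RefSeq, GRCm38.p6). Lrrc15 lies on the minus strand at chr16:30283205-30283504 and Pdgfra on the plus strand at chr5:75152001-75152300. Capitals mark matches on either strand to the GC box (GGGCGG), to the AP-1 motif (searched as TGANTCA, with any base at N) and to the SMAD motif (searched as CAGAC). The TATA box, the CCAAT box and the TEAD motif (searched as GGAATG) had no match in these windows.
Lrrc15: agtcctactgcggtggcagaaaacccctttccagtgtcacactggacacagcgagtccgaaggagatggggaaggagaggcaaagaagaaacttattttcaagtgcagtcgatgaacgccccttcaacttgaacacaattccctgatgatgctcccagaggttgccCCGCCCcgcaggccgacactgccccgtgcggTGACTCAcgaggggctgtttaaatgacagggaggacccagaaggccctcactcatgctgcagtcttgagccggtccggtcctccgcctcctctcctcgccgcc
Pdgfra: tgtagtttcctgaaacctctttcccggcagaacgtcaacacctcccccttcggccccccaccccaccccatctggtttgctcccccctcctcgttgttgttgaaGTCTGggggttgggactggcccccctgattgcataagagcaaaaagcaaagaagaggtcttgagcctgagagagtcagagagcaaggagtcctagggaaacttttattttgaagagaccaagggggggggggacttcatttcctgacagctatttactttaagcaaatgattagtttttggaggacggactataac
The Lrrc15 window held 1 GC box, whose match begins at position -84 and runs on the opposite strand, and 1 AP-1 match that begins at -53. The Pdgfra window held 1 SMAD match, beginning at -146 on the opposite strand. No matches overlapped. Of 32851 mouse promoter windows of the same length, 35.7% held a GC box, 7.81% an AP-1 match and 49.6% a SMAD match. A TATA box was in 13.6% of them, a CCAAT box in 37.4% and a TEAD match in 14.7%. GC content was 58.7% at Lrrc15 and 51.0% at Pdgfra. These are letter matches and no binding was measured.

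Thy1 was not a marker of fibroblasts alone. In pericytes it stood at 1586 CPM in library 1 (1442 to 1741) and 1481 CPM in library 2 (1350 to 1622). In fibroblasts it stood at 1389 CPM (1345 to 1435) and 466 CPM (443 to 489). Pericytes were therefore 1.14-fold above fibroblasts in library 1 (1.03 to 1.26) and 3.18-fold above them in library 2 (2.86 to 3.53). The order in library 1 turned, with fibroblasts above pericytes, without the 3 highest cells of each class and library. It also turned without the sub-clusters of fibroblasts that carry markers of other classes, and in the largest sub-cluster alone. The 3 highest cells held 27.35% of the Thy1 UMIs of the 61 pericytes and 9.89% of those of the 369 fibroblasts. Their removal thus lowers the smaller class more. T cells came next, at 296 and 302 CPM. The fibroblast markers in pericytes are given above, and their part in the Thy1 level was not tested. Blood endothelium held 57.8 and 97.5 CPM, of which 3 cells gave 47.5% and 54.9% of the UMIs. Epithelial tumor cells held 4.35 and 3.64 CPM, and unnamed cells 4.25 and 3.84 CPM. After each cell was thinned to 1000 UMIs, 45.8% of fibroblasts and 55.6% of pericytes of library 1 had a Thy1 UMI, against 26.4% and 66.7% in library 2, while 0.485% and 0.634% of epithelial tumor cells did.

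Lrrc15 was nearly confined to fibroblasts among the classes named. It stood there at 178 CPM in library 1 (162 to 194) and 46.2 CPM in library 2 (39.2 to 54.2). Pericytes held 2 UMIs and 1 UMI in all, or 7.11 and 3.18 CPM, so fibroblasts were 25-fold (6.88 to 207) and 14.5-fold (2.57 to 578) above them. Over epithelial tumor cells, at 0.607 and 0.420 CPM, the fold was 293 (217 to 402) and 110 (76.2 to 163). Endothelium had 4 UMIs in library 1 and 0 in library 2, where 3 counts would be 3.57 CPM. Few fibroblasts carried it: 27.6% of those of library 1 had a UMI and 12.4% of those of library 2, against 1.01% and 0.692% of epithelial tumor cells, whose median depth was 11633 and 12898 UMIs compared with 4817 and 4674 in fibroblasts.

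Fap was low and spread more widely. It stood at 69.2 CPM (59.6 to 80.0) and 53.8 CPM (46.2 to 62.2) in fibroblasts and at 28.5 CPM (12.3 to 56.1) and 35.0 CPM (17.5 to 62.6) in pericytes, on 8 and 11 UMIs. The intervals of the 2 classes lay apart in library 1 and overlapped in library 2. Macrophages held 8.46 CPM (6.22 to 11.2) and 12.9 CPM (9.76 to 16.8), which was 7.27-fold and 16.8-fold above epithelial tumor cells at 1.16 and 0.769 CPM. Endothelium had 3 UMIs and 1 UMI.

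**Figure D1:**
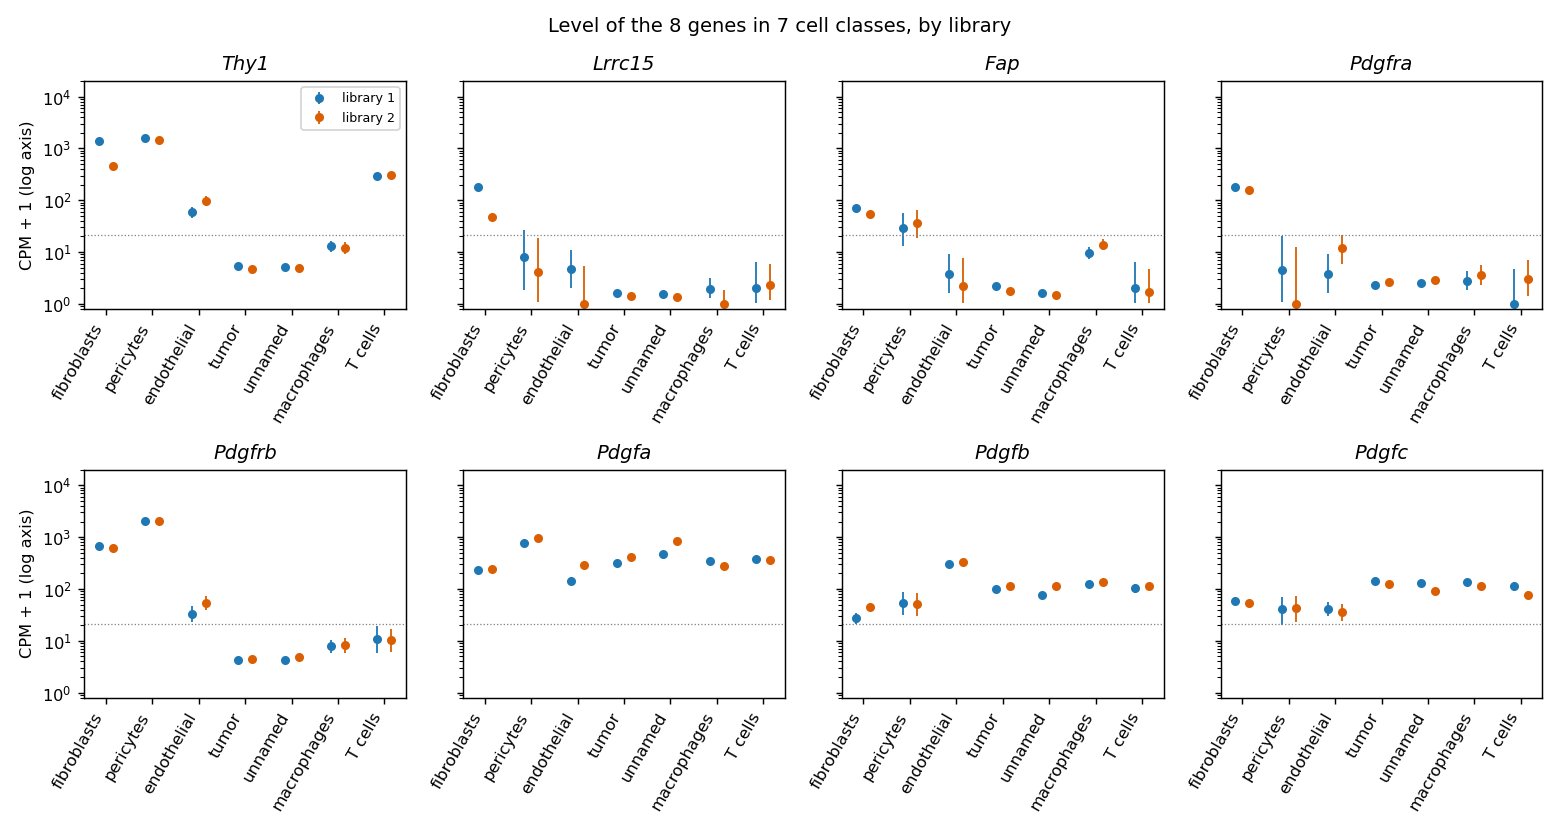
Level of each gene in 7 cell classes as CPM plus 1 on a log axis, with library 1 in blue, library 2 in orange, bars for the exact Poisson 95% interval and a dotted line at 20 CPM. Thy1 and Pdgfrb peak in pericytes, Lrrc15 and Pdgfra in fibroblasts, and Pdgfb in endothelium. The ligands Pdgfa, Pdgfb and Pdgfc are at 20 CPM or more in every class drawn.

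The receptors divided the stroma. Pdgfra, the alpha receptor, stood at 175 CPM (160 to 192) and 155 CPM (142 to 169) in fibroblasts. In pericytes it had 1 UMI among 61 cells of library 1 and 0 among 50 cells of library 2, where 3 counts would be 9.54 CPM. Fibroblasts were 49.2-fold above pericytes in library 1 (8.80 to 1950) and at least 16.2-fold above them in library 2. Endothelium held 2.84 and 10.7 CPM, on 3 and 9 UMIs, and epithelial tumor cells 1.29 and 1.61 CPM.

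Pdgfrb, the beta receptor, had the reverse order. Pericytes held 2038 CPM in library 1 (1874 to 2212) and 2031 CPM in library 2 (1877 to 2195). Fibroblasts held 681 CPM (650 to 713) and 623 CPM (596 to 650), so that pericytes were 2.99-fold (2.72 to 3.29) and 3.26-fold (2.98 to 3.57) higher. A Pdgfrb UMI was found in 57 of 61 and 50 of 50 pericytes. Endothelium held 32.2 and 53.5 CPM, but 3 cells gave 79.4% and 82.2% of those UMIs. The 11 pericyte markers summed to 1663 and 1251 CPM in endothelium, against 7099 and 7982 CPM in pericytes, and the part of these and of the fibroblast markers in the endothelial values of Thy1 and Pdgfrb was not tested. Epithelial tumor cells held 3.25 and 3.51 CPM. Because fibroblasts outnumber pericytes, they gave 60.7% and 61.5% of all Pdgfrb UMIs of the kept cells and pericytes 19.1% and 18.9%.

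Pdgfa, the A ligand, was counted in many classes, in some of them near the epithelial background. Its highest level was in pericytes, at 772 CPM (672 to 882) and 966 CPM (861 to 1081), where the epithelial background was 144 and 185 CPM. In library 2, 3 of the 50 pericytes gave 31.6% of these UMIs, while the 3 highest unnamed cells gave 1.4% of theirs. Without the 3 highest cells of each class and library, unnamed cells were the highest class in library 2. Unnamed cells held 481 and 841 CPM and epithelial tumor cells 320 and 405 CPM. Pericytes stood 2.41-fold (2.10 to 2.76) and 2.38-fold (2.12 to 2.67) above epithelial tumor cells, and 1.60-fold (1.40 to 1.83) and 1.15-fold (1.02 to 1.29) above unnamed cells. Fibroblasts held 229 and 244 CPM beside a background of 99.8 and 142 CPM, and endothelium 144 and 287 CPM beside 92.6 and 159 CPM. Macrophages held 338 and 277 CPM beside 169 and 260 CPM, and T cells 370 and 355 CPM beside 215 and 306 CPM. Neutrophils held 362.5 and 365 CPM beside 170 and 395.5 CPM, and dendritic cells 254 and 305 CPM beside 164 and 218 CPM. In absolute number, epithelial tumor and unnamed cells together gave 94.7% and 95.9% of all Pdgfa UMIs. Their share of the UMIs of all genes was only a little lower. Epithelial tumor cells held 79025018 and 85775908 UMIs of all genes, and unnamed cells 77628595 and 59160555.

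Pdgfb, the B ligand, peaked in endothelium. It stood there at 297 CPM (265 to 332) and 332 CPM (294 to 373), beside an epithelial background of 20.1 and 30.4 CPM. Macrophages held 122 and 136 CPM and epithelial tumor cells 99.2 and 111 CPM, so endothelium was 2.43-fold and 2.44-fold above macrophages and 3.0-fold and 2.99-fold above tumor cells. The macrophage background was 36.7 and 49.8 CPM. Pericytes held 53.4 CPM (29.9 to 88.0) and 50.9 CPM (29.1 to 82.6), on 15 and 16 UMIs. Their background of 31.2 and 35.3 CPM lay inside these intervals. Fibroblasts held 26.2 CPM (20.4 to 33.1) and 44.2 CPM (37.3 to 51.9). The fibroblast background was 21.6 and 27.2 CPM, which lies inside the interval of library 1 and below that of library 2. It rests on a median share of 24.97% and 24.4%. The single markers ranged from 22.2% to 38.4% in library 1 and from 12.3% to 34.3% in library 2. Endothelium gave 2.12% and 1.59% of all Pdgfb UMIs, and tumor and unnamed cells together 91.6% and 92.2%. The latter share was no higher than the share of these cells in the UMIs of all genes.

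Pdgfc, a ligand that must be cleaved by proteases such as tissue plasminogen activator before it binds, was counted in tumor, myeloid and other classes. Epithelial tumor cells held 141 CPM (138 to 143) and 122 CPM (119 to 124), and macrophages 133 CPM (124 to 143) and 113 CPM (103 to 124). The intervals of these 2 classes overlapped in both libraries. Neutrophils, at 114 CPM (87.1 to 147) and 109 CPM (80.3 to 144), overlapped both, and with at least 1000 UMIs a cell they were the highest class in library 2. Unnamed cells held 127 and 90.2 CPM, T cells 111 and 75.5 CPM, and the few islet cells 132 and 91.2 CPM. The epithelial background was 56.7 and 48.5 CPM in macrophages and 56.9 and 73.7 CPM in neutrophils. In T cells it was 72.2 and 57.1 CPM, and in islet cells 78.3 and 57.8 CPM. Its part in these levels was not tested. Fibroblasts held 57.6 CPM (48.9 to 67.5) and 52.6 CPM (45.1 to 60.9), above a background of 33.4 and 26.5 CPM. Pericytes, at 39.1 CPM (19.5 to 70.0) and 41.3 CPM (22.0 to 70.7), and endothelium, at 39.8 CPM (28.7 to 53.8) and 34.5 CPM (23.1 to 49.5), had intervals that held their background of 48.2 and 34.4 CPM and of 31.0 and 29.6 CPM.

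Between the libraries, Thy1 and Lrrc15 stood apart in fibroblasts. A gene was called when it was at least 2-fold different on CPM plus 1 and at 20 CPM or more in 1 library. Of the 8 genes, all at that level in fibroblasts, 2 were lower in library 2, where 1.41% of 8678 genes were, and 0 were higher, where 1.04% were. Thy1 had a log2 ratio of -1.57, with 466 CPM in library 2 at 0.335 times library 1 (0.316 to 0.356). Lrrc15 had a log2 ratio of -1.92, at 0.260 times (0.215 to 0.313). Pdgfb came next, at 0.73 (1.69 times, 1.26 to 2.27), with a range of 0.38 to 1.72 over 18 alternatives, 5 of which took it past 2-fold. The other surface marker, Fap, had -0.36 (0.777 times, 0.629 to 0.959). The receptors were close between the libraries: Pdgfra at -0.18 (0.883 times, 0.778 to 1.003) and Pdgfrb at -0.13 (0.915 times, 0.859 to 0.975).

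Thy1 in the other classes that carry it did not follow. In pericytes its log2 ratio was -0.10 (0.934 times, 0.818 to 1.07), and T cells held 296 CPM (264 to 332) and 302 CPM (275 to 331). After thinning, 54.2% of the fibroblasts of library 1 and 73.6% of those of library 2 had 0 Thy1 UMIs. At the other end, 47 of 336 fibroblasts of library 1 (14.0%) had 3 or more Thy1 UMIs and 8 of 413 (1.94%) of library 2, while 20.5% and 17.7% had exactly 1. Among pericytes 18.5% and 20.0% had 3 or more. The summed level of the 6 smooth muscle markers also differed in fibroblasts, at 290 and 107 CPM, with 4 and 2 of them at 20 CPM. The 11 pericyte markers summed to 460 and 337 CPM, with 5 at 20 CPM in each library, and the 10 T cell markers to 6.74 and 46.2 CPM, with 0 at 20 CPM. The part of these lists in the Thy1 difference was not tested. The 12 fibroblast markers summed to 98040 and 104900 CPM and 12 macrophage markers to 1167 and 1109 CPM.

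**Figure D2:**
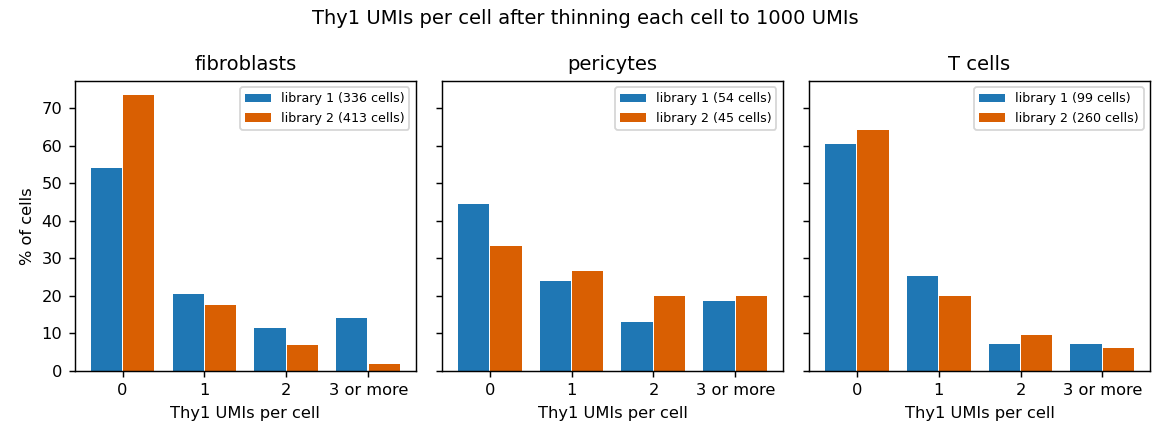
Share of cells (%) with 0, 1, 2 or at least 3 Thy1 UMIs after each cell was thinned to 1000 UMIs, for library 1 (blue) and library 2 (orange). In fibroblasts 3 or more UMIs were in 14.0% of cells of library 1 and 1.94% of library 2, and in pericytes in 18.5% and 20.0%.

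In pericytes 6 of the 8 genes were at level and 0 were called, beside 6.03% of 9143 genes higher and 7.69% lower. Pdgfrb had a log2 ratio of -0.01 there (0.997 times, 0.889 to 1.12) and Pdgfa 0.32 (1.25 times, 1.05 to 1.497). In endothelium 5 were at level and 0 were called, beside 3.37% of 8901 genes higher and 1.06% lower. Pdgfa came nearest, at 0.99 (1.99 times, 1.62 to 2.46), with 22.4% and 34.9% of its UMIs in 3 cells, and its epithelial background was 92.6 and 159 CPM. Over the alternatives it ranged from 0.41 after thinning to 1.38 with tumor-cell RNA subtracted, and it passed 2-fold in the latter and, at 1.05, with no cell filter. Pdgfb, whose level was higher in endothelium than in the other classes, was at 0.16 there (1.12 times, 0.946 to 1.32).

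**Figure D3:**
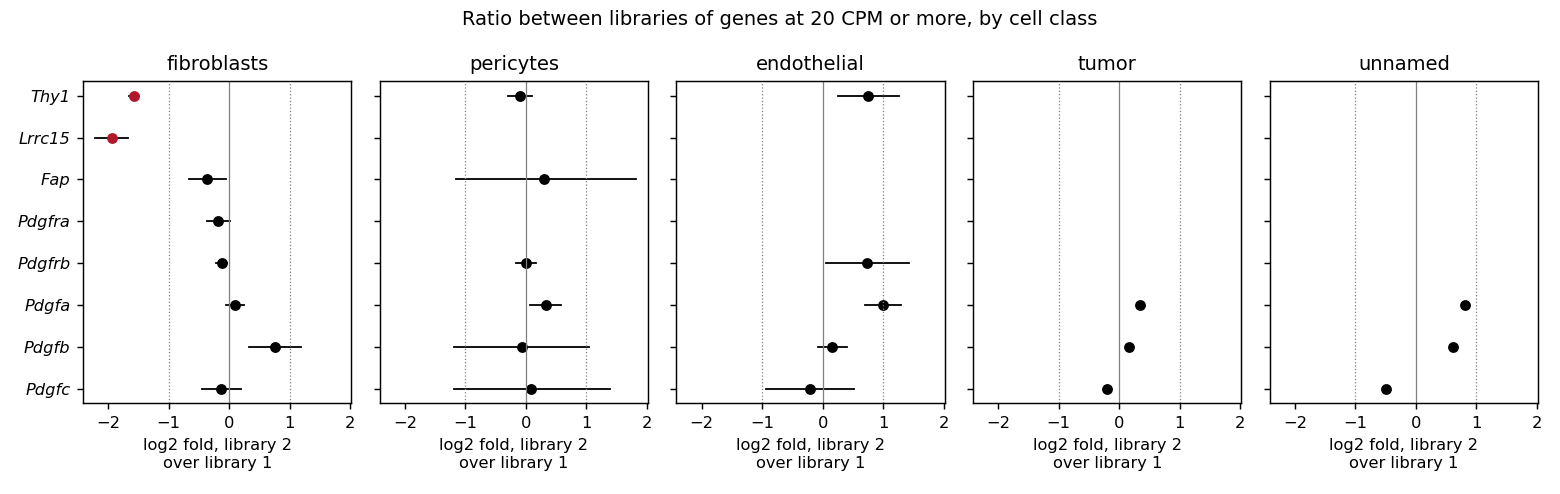
Log2 of the CPM ratio (library 2 over library 1) for each gene at 20 CPM or more in a class, with bars for the exact 95% counting interval, dotted lines at 2-fold and called genes in red. Only Thy1 and Lrrc15 in fibroblasts lie past 2-fold.

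In tumor cells only the ligands were at level. In epithelial tumor cells 3 of the 8 genes were, with 0 called, beside 0.173% of 8672 genes higher and 0.415% lower. Unnamed cells had the same 3 at level and 0 called, beside 0.476% of 8195 genes higher and 0.11% lower. Pdgfa had a log2 ratio of 0.34 in epithelial tumor cells and 0.81 in unnamed cells (1.75 times, 1.73 to 1.77). Pdgfb had 0.16 and 0.60, and Pdgfc -0.21 and -0.49. The A and B ligands thus stood higher in library 2 in both classes, and the C ligand lower.

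Part of the Pdgfa difference went with which clusters each library filled. The highest Pdgfa levels were in 2 unnamed clusters led by the peptide hormone gene Cck. The first, which also carries Il11 and Aqp3, held 919 CPM in the 313 cells of library 1 and 1130 CPM in the 786 cells of library 2. The other, with Mmp10 and Apoc2, held 789 CPM in 35 cells and 1040 CPM in 553 cells. These same clusters held Pdgfc at 116 and 62.8 CPM and at 108 and 67.0 CPM. In the clusters of epithelial tumor cells Pdgfa ranged from 226 to 526 CPM in library 1 and from 201 to 608 CPM in library 2. With library 2 weighted to the cluster shares of library 1, the log2 ratio of Pdgfa was 0.33 in unnamed cells and 0.16 in epithelial tumor cells, that of Pdgfb 0.33 and 0.25, and that of Pdgfc -0.14 and -0.17. Pdgfa was higher in library 2 in 7 of 7 unnamed clusters and in 4 of 8 epithelial ones. Of the latter, the cluster led by the mitotic genes Troap and Ube2c held 314 and 567 CPM. The unnamed cluster led by Aldh1l2 was near equal, at 506 CPM (490 to 521) and 508 CPM (485 to 532). Pdgfb was higher in library 2 in 8 of 8 epithelial and 6 of 7 unnamed clusters, and in the interferon-response cluster led by Ifit3 it held 68.6 and 138 CPM. In the epithelial cluster led by Muc5b it was near equal, at 69.75 CPM (64.1 to 75.7) and 71.0 CPM (58.55 to 85.3).

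**Figure D4:**
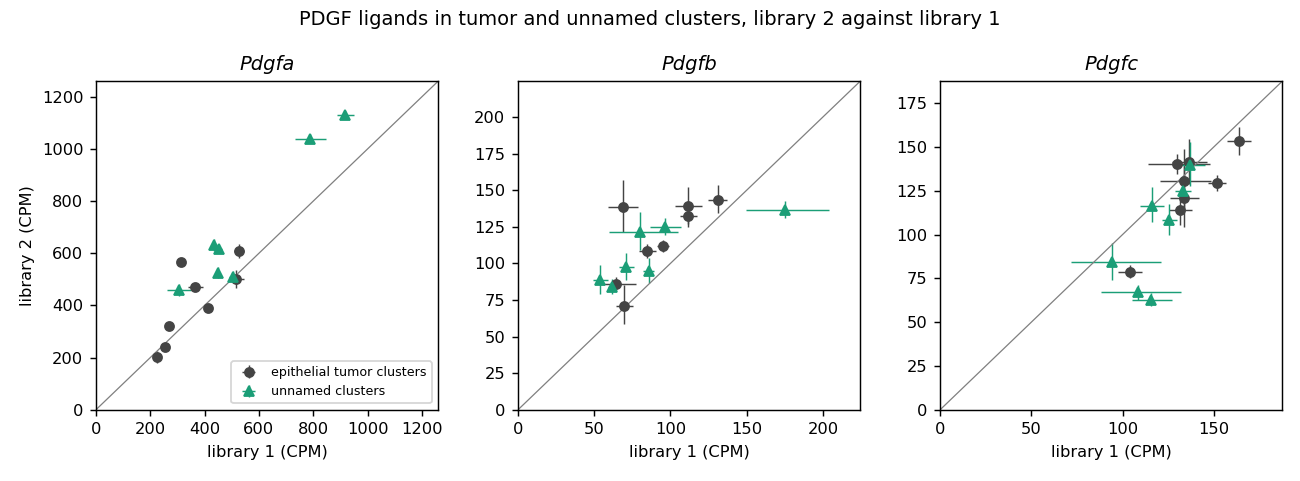
PDGF ligand level (CPM) in each cluster of epithelial tumor cells (grey circles) and of unnamed cells (green triangles), library 2 against library 1, with exact Poisson 95% intervals and a line of equality. The 2 Cck-led clusters lie at the top right for Pdgfa (919 and 1130 CPM, 789 and 1040 CPM) and low for Pdgfc in library 2.

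Fibroblasts were clustered again without the 8 genes, which gave 6 sub-clusters. Sub-cluster 1, led by the immunoglobulin genes Jchain and Igkc with Igf2 and Abi3bp, carried Postn at 1215 CPM and held 175 cells of library 1 (47.4%) and 117 of library 2 (26.0%). Sub-cluster 2, with Calca, Slpi and Saa3 among its leading genes, carried Postn at 29.1 CPM and the chemokine gene Cxcl12 at 239 CPM and held 26 (7.05%) and 117 (26.0%). Sub-cluster 3, at 40 and 102 cells, carried 10 macrophage markers, and sub-cluster 5, at 55 and 49 cells, carried 9 epithelial markers. Sub-cluster 4, with Ccn3 and the calponin gene Cnn1, held 59 and 57 cells, and sub-cluster 6 held 14 and 8. Smooth muscle and pericyte markers were not counted as those of another class. Relative to the other fibroblasts, sub-cluster 1 carried 3 smooth muscle and 2 pericyte markers. Sub-cluster 4 carried 3 and 0, and sub-cluster 6 carried 2 and 1. The part of these markers in the Thy1 levels was not tested.

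Thy1 and Lrrc15 were both highest in sub-clusters 1 and 4. In sub-cluster 1 Thy1 stood at 1820 CPM (1748 to 1894) and 809 CPM (753 to 869), and in sub-cluster 4 at 1475 CPM (1285 to 1685) and 453 CPM (343 to 587). In sub-cluster 2 it stood at 359 CPM (268 to 471) and 326 CPM (291 to 364), and there alone did the intervals of the libraries overlap, leaving out sub-cluster 6, which had 0 Thy1 UMIs. Library 2 held 0.445 times the Thy1 of library 1 in sub-cluster 1 (0.410 to 0.483), 0.307 times in sub-cluster 4 (0.225 to 0.413) and 0.907 times in sub-cluster 2 (0.675 to 1.24). In sub-clusters 3 and 5, which carry macrophage and epithelial markers, it held 0.418 and 0.337 times.

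Lrrc15 stood at 278 CPM (250 to 308) and 108 CPM (88.3 to 131) in sub-cluster 1 and at 306 CPM (223 to 409) and 151 CPM (91.0 to 236) in sub-cluster 4. In sub-cluster 2 it had 0 UMIs in library 1 and 1 UMI in library 2. Library 2 held 0.389 times the Lrrc15 of library 1 in sub-cluster 1 (0.310 to 0.486) and 0.494 times in sub-cluster 4 (0.273 to 0.862). With library 2 weighted to the sub-cluster shares of library 1, the log2 ratio was -1.27 for Thy1 and -1.27 for Lrrc15, against -1.57 and -1.92 unweighted. Both genes were therefore past 2-fold at equal sub-cluster shares as well.

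Over sub-clusters 1, 2 and 4 the receptors varied less than Thy1 and Lrrc15. Outside these, Pdgfra stood at 143 and 232 CPM in sub-cluster 3 and at 88.8 and 65.9 CPM in sub-cluster 5. Library 2 held 0.725 times the Pdgfra of library 1 in sub-cluster 1 (0.596 to 0.88). In sub-cluster 3 it held 1.62 times (1.01 to 2.73). Pdgfrb was at 389 and 355 CPM in sub-cluster 3 and at 421 and 444 CPM in sub-cluster 5. Pdgfrb stood at 907 and 950 CPM in sub-cluster 1, 560 and 594 CPM in sub-cluster 2 and 761 and 541 CPM in sub-cluster 4. Pdgfra stood at 235 CPM (209 to 262) and 170 CPM (145 to 198) in sub-cluster 1 and at 200 CPM (134 to 288) and 181 CPM (155 to 210) in sub-cluster 2, whose intervals overlap. Fap stood at 101 CPM (84.3 to 119) and 81.9 CPM (64.7 to 102) in sub-cluster 1 and at 41.5 CPM (15.2 to 90.2) and 40.8 CPM (29.0 to 55.7) in sub-cluster 2. Among the ligands, Pdgfb was low in sub-cluster 1, at 9.08 CPM (4.69 to 15.9) on 12 UMIs and 30.4 CPM (20.4 to 43.7) on 29 UMIs, and was highest in sub-cluster 3, at 75.0 and 79.6 CPM, where macrophage markers were present. Pdgfc stood at 118 CPM (68.4 to 188) and 59.6 CPM (45.1 to 77.2) in sub-cluster 2 and at 30.3 and 29.4 CPM in sub-cluster 1.

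**Figure D5:**
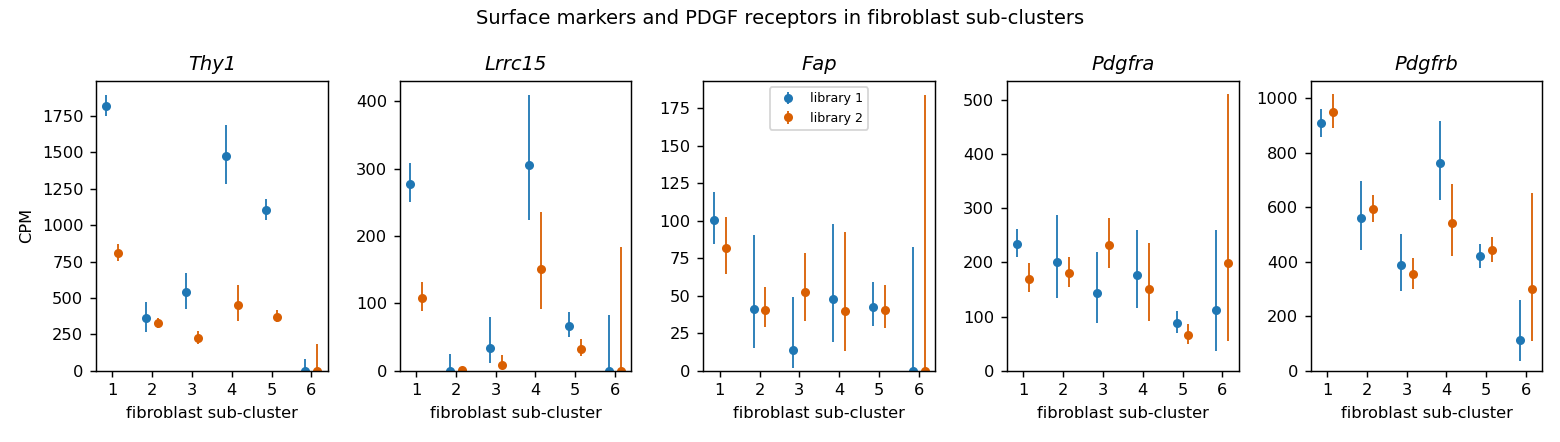
Level (CPM, linear axis, a scale for each gene) of the surface markers and receptors in 6 fibroblast sub-clusters, with library 1 in blue, library 2 in orange and exact Poisson 95% intervals. Thy1 and Lrrc15 are highest in sub-clusters 1 and 4 and lower there in library 2, while Pdgfrb is near 907 and 950 CPM in sub-cluster 1.

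Among fibroblasts thinned to 1000 UMIs, 32 of 39 Lrrc15-positive cells of library 1 (82.1%) also had a Thy1 UMI, and 6 of 16 (37.5%) of library 2. Over all thinned fibroblasts, 45.8% and 26.4% had a Thy1 UMI. Both receptors were found in the same cell in 32 of 50 Pdgfra-positive cells of library 1 (64.0%) and 26 of 59 of library 2 (44.1%), and Pdgfrb was found in 43.4% and 37.0% of the cells without a Pdgfra UMI. In pericytes Pdgfra was found in 0 of 54 and 0 of 45 thinned cells, beside Pdgfrb in 41 and 39.

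Other genes of the PDGF pathway differed little in fibroblasts. Of 36 genes listed, covering a further ligand, proteases, binding proteins and signal carriers, 35 were measured and 32 were at level. Their median log2 ratio was -0.10, beside 0.04 over all 8678 genes, with 0 called higher and 1 lower, where 1.04% and 1.41% of all genes were. The one called was Pcsk5, a proprotein convertase, at 281 CPM (261 to 302) and 117 CPM (106 to 129), a log2 ratio of -1.25. In epithelial tumor cells 1 of 31 was called lower, where 0.415% of all genes were, St14 (matriptase, a membrane serine protease), at 68.5 and 30.6 CPM (-1.14). In endothelium 0 of 31 and in unnamed cells 0 of 28 were called. In pericytes, which hold fewer than 100 cells in each library, 1 of 30 was called higher and 3 lower, where 6.03% and 7.69% of all genes were.

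Of 36 other surface proteins used for such fibroblasts, 32 were at level in fibroblasts, with a median log2 ratio of -0.09, 2 called higher and 3 lower, where 1.04% and 1.41% of all genes were. Vcam1, an adhesion molecule for leukocytes, stood at 74.8 CPM (64.8 to 86.0) and 202 CPM (187 to 218), a log2 ratio of 1.42. Cdh2 (N-cadherin) stood at 15.7 CPM (11.3 to 21.2) and 55.3 CPM (47.6 to 63.8), a ratio of 1.75. Eng, a TGF-beta co-receptor, stood at 410 CPM (387 to 436) and 155 CPM (142 to 169), a ratio of -1.40. The glypican Gpc3 stood at 51.6 and 14.4 CPM (-1.77) and the aminopeptidase Anpep at 50.9 and 23.7 CPM (-1.07). In endothelium 2 of 24 were called higher, where 3.37% of all genes were: the pericyte proteoglycan Cspg4 at 3.79 and 23.8 CPM, with all its UMIs in 3 cells of each library, and Cd248 (endosialin) at 17.99 and 39.2 CPM, with 84.2% and 69.7% of its UMIs in 3 cells. In pericytes 2 of 30 were called lower and 0 higher, where 7.69% and 6.03% of all genes were, and in epithelial tumor cells and unnamed cells 0 of 18 each.

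Over 18 points, 9 classes in 2 libraries that share the libraries' depth and free RNA, the genes most like each member were sought among 8602 genes by Pearson's r of log2(CPM plus 1), as a description. Pdgfrb was followed most closely by Cd248 (0.992), Rem1 (0.991) and Naalad2 (0.985). Thy1 was nearest to the collagen receptor Mrc2 (0.95), then Rgs16 (0.928) and Itih5 (0.909). For Lrrc15 the nearest were Tmem45a (0.961), A2m (0.942) and Ndn (0.940), and for Pdgfra Ptger3 (0.897), Sfrp2 (0.883) and Mdk (0.881). Fap was nearest to P4ha1 (0.911) and Cxcl14 (0.906). For the ligands they were Cobll1 (0.881), Dbndd2 (0.876) and Plekhh3 (0.874) for Pdgfa, Sh3tc1 (0.916), Ehd4 (0.910) and Map3k11 (0.902) for Pdgfb, and Arl4c (0.940), Etv5 (0.940) and Cd14 (0.936) for Pdgfc. The receptors Pdgfra and Pdgfrb had an r of 0.497 with each other.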

How the data were processed

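Per the submitters' processing notes, the authors made the deposited UMI counts with Cell Ranger 8.0.0 against mm10, and per the labels' protocols each sample pools 4 tumors in a probe-based fixed-RNA assay. A probe count does not scale with transcript length, but probes differ between genes, so no level is compared between genes. The members and gene lists were chosen with earlier results of these data known.

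A filter of 200 genes, 500 UMIs and 20% mitochondrial UMIs left out 5 and 23 cells. Scrublet's automatic thresholds marked 1 and 0 cells, so it had not worked, and the highest scores were removed at 0.8% per 1000 cells (1217 and 1137 cells). Doublets may remain. Cells were scaled to 10000 UMIs. Then 3000 variable genes without the 8 members, 50 components, 15 neighbors and Leiden resolution 1 gave clusters, named from at least 3 markers at 20 CPM and 2-fold (scanpy 1.11.5, leidenalg 0.10.2, Python 3.11.15). Clusters without a name were then set against the mean of the named non-tumor classes, where they could take only the tumor name. Fibroblasts were clustered again on 2000 genes, 30 components, resolution 0.5. UMIs were summed per class and library, as CPM with exact Poisson intervals, shares are of cells, and ratios use CPM plus 1. The epithelial background of a class is the median, over 12 epithelial markers, of their level relative to tumor and unnamed cells. All members, list genes past 2-fold in classes of at least 100 cells per library, and the 3 genes most like each member (at least 50 CPM in 1 class, classes of 30 cells) are named, except that 1 gene near Fap is not reported here. TMM factors came from edgeR 4.0.16 in R 4.3.3. The 2-fold call was run on simulated counts with Poisson error only. That run holds no variation between cells or samples, so it cannot show how the call behaves on these data. No test or p-value is given.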

Additional observations from a re-analysis of the deposited data

Results flagged for a closer look

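Cdh2 was called in opposite directions in 2 cell classes. Its log2 ratio was 1.75 in fibroblasts, at 15.7 and 55.3 CPM with a UMI in 34 and 100 cells, and -1.23 in pericytes, at 128 CPM (89.7 to 177) and 54.0 CPM (31.5 to 86.5) with a UMI in 19 and 15 cells. In pericytes 3 cells held 47.2% and 29.4% of its UMIs. The difference between the classes was not tested, since each library is 1 sample.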

How the results depend on the processing

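The calls of Thy1 and Lrrc15 in fibroblasts held under every alternative run, so that 2 genes were lower in library 2 each time. Thy1 ranged from -1.61 to -1.17 and Lrrc15 from -2.04 to -1.27 over 18 alternatives. Differences were smaller without doublet removal (-1.21 and -1.65), with the automatic doublet thresholds (-1.20 and -1.64), in the largest sub-cluster alone (-1.17 and -1.35) and at equal sub-cluster shares (-1.27 and -1.27), and for Lrrc15 with per-cell shares averaged (-1.41). The largest sub-cluster alone, equal sub-cluster shares and the pooling of tumor and unnamed cells were chosen after seeing the data. For the matched sub-cluster at sub-cluster resolutions 0.3 and 0.8, Thy1 was at -1.15 and -1.17 and Lrrc15 at -1.34 and -1.37. Of 400 log2 ratios recomputed, 321 stayed close to the reported value and 79 did not. Close meant inside its counting interval, or within 0.3 for the sub-cluster resolutions. A change of sign was counted only for called values, Thy1 and Lrrc15 in fibroblasts, and 0 changed. Some uncalled ratios did change sign over the alternatives. Among them were Fap in pericytes (-0.71 to 0.49), Pdgfrb in endothelium (-0.72 to 0.85) and Pdgfra in fibroblasts (-0.46 to 0.25).

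Pdgfb in fibroblasts, at 0.73, passed 2-fold and made 1 gene higher when per-cell shares were averaged (1.41), after thinning to 1000 UMIs (1.24), without the marker-bearing sub-clusters 3 and 5 (1.61), with tumor-cell RNA subtracted (1.72) and in the largest sub-cluster alone (1.64), on 12 and 29 UMIs there. Thy1 in endothelium was at 1.88 with resolution 2. In pericytes thinning gave 1 higher and 2 lower, and no filter on low genes 1 lower. In endothelium 1 gene was higher with no filter on low genes, resolution 2 and tumor-cell RNA subtracted, 2 were higher with no cell filter, and 1 was lower with no filter on low genes and with thinning. Of all genes in fibroblasts, 90 were called higher, against 53 with 10 CPM added, 437 with no filter on low genes, 193 with per-cell shares, 548 with thinning, 201 with tumor-cell RNA subtracted and 39 at equal sub-cluster shares. The 122 called lower became 78, 416, 48 without doublet removal, 49 with automatic thresholds, 461 with thinning, 189 with tumor-cell RNA subtracted and 81 at equal shares. The cause of these shifts was not tested.

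Thy1 in library 1 was highest in fibroblasts, not pericytes, without the 3 highest cells of each class and library, a removal that lowers small classes more. The same held without the marker-bearing sub-clusters, and in the largest sub-cluster alone. The class with the highest level changed for Pdgfa in library 2 without the 3 highest cells (to unnamed cells) and for Pdgfc in library 2 with at least 1000 UMIs, thinning and pooled tumor cells. Small numbers limit pericytes, where Fap, Pdgfb and Pdgfc rest on 8 to 16 UMIs a library. No paired analysis was possible because each treatment has 1 sample and the labels carry no replicate numbers.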
